A study of Mus musculus with 12 samples.

Results

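A set of 10 genes of young neurons and dividing progenitors were followed in the adult mouse striatum: Dcx, Igfbpl1, Sox11, Sox4, Dlx1, Dlx2, Dlx5, Dlx6, Mki67 and Top2a. They were taken by symbol from a table of 57132 features, and 9 of the 10 were among the 13902 features with enough counts to be tested, the exception being Igfbpl1. The tissue came from 10-month-old C57Bl/6 littermates, of which 6 carried the knockout of Taar5, a receptor for trace amines (TAAR5-KO), and 6 were wild type (WT). The striatum was what was left of a coronal slice at and in front of bregma after the cortex had been cut away, so it was a mixture of cell types that was not sorted for the wall of the ventricle. Ribosomal RNA was taken out with a depletion kit before single-end sequencing of 100 bases, although the labels give the molecule as polyA RNA. How the knockout allele was built, and which tissues lack the receptor, are not given in the sources used here. The paper states that males and females were equal in number in each genotype. The labels tie no library to a numbered animal or to a sex, and sex was in no fit.

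In adult rodents, neural stem cells in the wall of the lateral ventricle, beside the striatum, give rise to transit-amplifying cells and then to neuroblasts, which migrate to the olfactory bulb and become interneurons. Neuroblasts contain the microtubule-binding protein doublecortin (Dcx) and the transcription factors Sox4 and Sox11, and those that become GABAergic neurons use homeobox factors of the Dlx family. Dividing cells make the nuclear protein Ki-67 (Mki67) and topoisomerase II alpha (Top2a), which untangles DNA before mitosis.

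The libraries are called NK1 to NK6 (labelled TAAR5-KO) and NK7 to NK12 (labelled WT). They held 11269915 to 34824450 counts each, of which 64.3% to 88.1% were on ribosomal RNA, so 1819907 to 6399188 counts per library were left for other genes. Levels below are counts scaled to a common library total (CPM) on library sizes scaled by TMM. This method gives each library 1 factor, on the assumption that most genes do not differ between libraries. On that scale 3 counts, up to which a gene was read as not distinguishable from 0, stood for 0.0679 to 0.362 CPM. Taar5 itself had 1 to 6 counts in each library labelled TAAR5-KO and 0 to 2 in those labelled WT, the reverse of what the labels would give. Only NK6, with 6 counts, passed 3 counts, so these counts cannot decide whether the labels are right. Every difference below is therefore one between labels. Libraries NK11 and NK12 held 127 and 104 counts of growth hormone (Gh), against 0 to 12 in the others.

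None of the 9 tested genes passed the test between the labels. The likelihood ratio test of edgeR called 0 of 9 at a Benjamini-Hochberg adjusted p under 0.1, where it called 1.65% of all features tested. At an unadjusted p under 0.05 the count was again 0 of 9, while 11.9% of all features had such a p. The quasi-likelihood test of edgeR called 0 of 9 (0.453% of all features) and DESeq2 called 0 of 9 (1.27% of all features), with 0 of 9 at an unadjusted p under 0.05 in either tool and with 5 of the 9 given no adjusted p by DESeq2. The 6 and 6 libraries overlapped in CPM for all 10 genes, whereas they did not overlap for 1.01% of all features. The median log2 fold change of the 9 genes was 0.03, beside -0.0061 for all features. Their median absolute log2 fold change was 0.0878, beside 0.139 for all features, and their median standard error was 0.196, beside 0.168.

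The 95% intervals state how large a difference these libraries leave room for. They were built from the standard error of each fold change and a normal distribution. Each gene's spread beyond counting error was taken as known, so the intervals leave out the uncertainty of that spread. All 9 intervals lay within 1 log2 unit of 0, from -0.50 at the lowest to 0.93 at the highest, both for Top2a. Leaving out 1 library took the upper bound of Top2a past 1 in 4 of 12 fits (without NK1, NK5, NK8 or NK9), and the intervals of all 9 genes passed 1 log2 unit when only library size was used for scaling. The narrowest was that of Dcx, from 0.9-fold to 1.22-fold, and the widest that of Top2a, from 0.71-fold to 1.9-fold. A p that misses the threshold does not show that a level was equal. In tissue of this kind, fewer cells of a type and less RNA in each of them cannot be told apart.

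**Figure D1:**
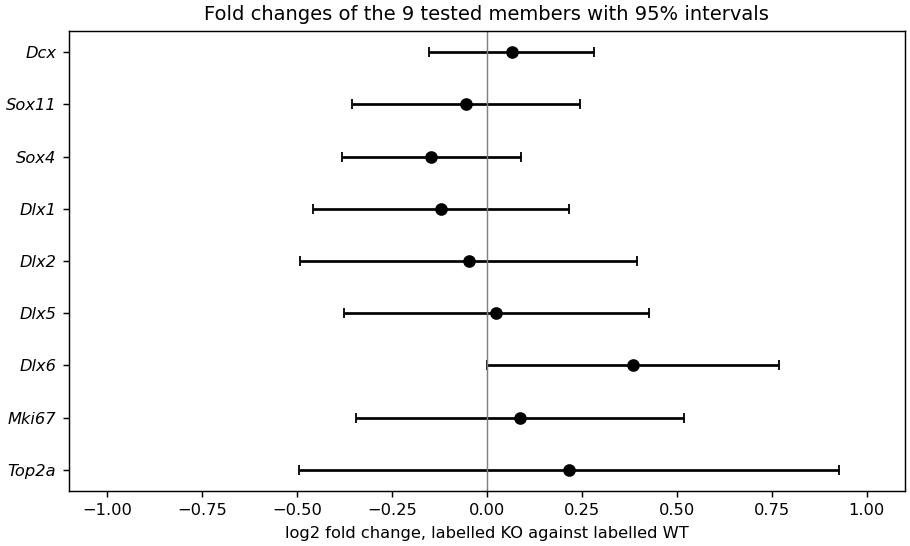
The log2 fold change of each tested gene (labelled TAAR5-KO against labelled WT, 6 libraries each) is drawn as a point with its 95% interval. The interval of each of the 9 genes includes 0, and that of Dlx6 ends at -0.00037 on its lower side.

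Dcx (ENSMUSG00000031285.15, chromosome X, 142638838 to 142716307 on GRCm39) stabilises microtubules in migrating neurons and is the usual label of neuroblasts. Its level in the libraries labelled TAAR5-KO had a lowest value of 5.02 CPM, a median of 6.90 and a highest value of 7.97. In those labelled WT the corresponding values were 5.67, 6.36 and 7.45 CPM. The ranges overlapped, with NK1 and NK2 above every WT library and NK4 below every one. The means were 6.85 ± 1.01 and 6.52 ± 0.627 CPM (SD, n = 6), and the log2 fold change was 0.07 with a standard error of 0.11 (edgeR likelihood ratio test, adjusted p = 0.877). With the GC trend of each library taken out the value was -0.09, on the other side of 0. Leaving out 1 library gave 0.03 (without NK1) to 0.14 (without NK4).

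Igfbpl1 (ENSMUSG00000035551.7, chromosome 4, 45809468 to 45826923, an insulin-like growth factor binding protein-like gene of young neurons) was close to the limit of these libraries. It had 2 to 9 counts per library, and in 5 of 12 libraries it was at or under 3 counts. Its CPM ran from 0.156 over a median of 0.236 to 0.46 in the libraries labelled TAAR5-KO and from 0.125 over 0.306 to 0.362 in those labelled WT. The means were 0.271 ± 0.132 and 0.264 ± 0.0982 CPM (SD, n = 6), and the 2-sided exact permutation test over libraries gave p = 0.9, where the smallest p that this design allows is 0.00216. Only 2 libraries reached the 0.5 CPM on total counts that the filter asked of 3. Fitted with no filter, its log2 fold change was 0.12 with a standard error of 0.42, so the depth leaves an interval from -0.71 to 0.95.

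Sox11 and Sox4 are transcription factors of the SoxC group, which switch on genes of immature neurons. Sox11 (ENSMUSG00000063632.7, chromosome 12, 27384263 to 27392573) had the highest CPM of the 10 genes and ran from 4.78 over a median of 8.47 to 10.5 CPM in the libraries labelled TAAR5-KO. In those labelled WT it ran from 6.75 over 8.66 to 9.41 CPM. The lowest and the highest of the 12 values, NK6 and NK4, both carried the TAAR5-KO label, and the other 4 libraries of that label lay inside the WT range. This gave a log2 fold change of -0.05 with a standard error of 0.15 (edgeR likelihood ratio test, adjusted p = 0.937), and without NK6 it was 0.08.

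Sox4 (ENSMUSG00000076431.5, chromosome 13, 29132902 to 29137696) ran from 5.07 over a median of 5.29 to 8.28 CPM in the libraries labelled TAAR5-KO and from 6.03 over 6.29 to 7.01 CPM in those labelled WT. Of the former, 4 of 6 (NK1, NK2, NK5 and NK6) lay below every WT library, while NK3, at 8.28 CPM, lay above all of them. As fitted, the log2 fold change was -0.15 with a standard error of 0.12, an interval of -0.38 to 0.09 and an adjusted p of 0.683 in the likelihood ratio test of edgeR. Without NK3 it was -0.25, with an unadjusted p under 0.05 and an adjusted p of 0.333, so 1 library moved this value by over 1.5 times and the call did not change. The SD was 1.24 CPM under the TAAR5-KO label and 0.358 CPM under the WT label. A stretch of 394 bases of Sox4 matched the transcript A330102I10Rik at 99.7%, so reads from that stretch could belong to either.

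**Figure D2:**
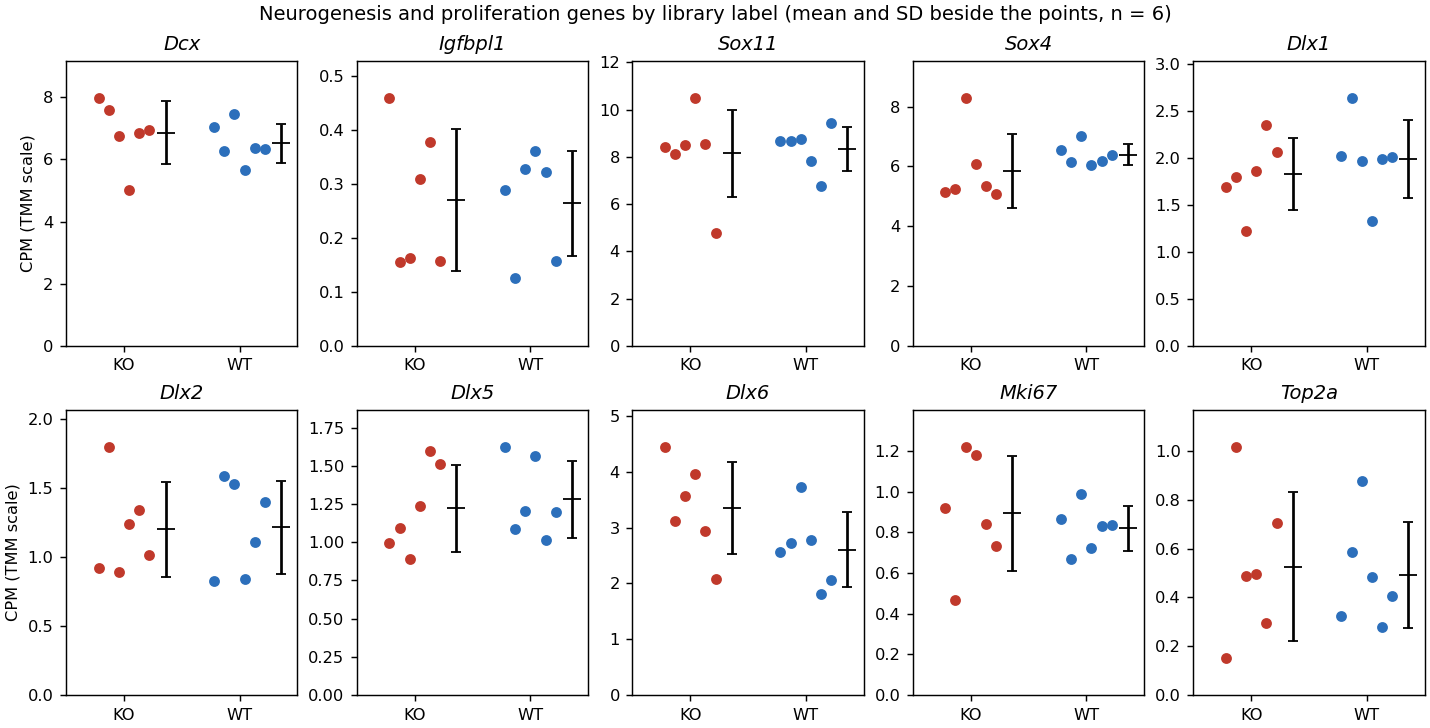
Each panel plots 1 gene in CPM on the TMM scale, with 1 point per library (6 labelled TAAR5-KO in red, 6 labelled WT in blue) and the mean with its SD beside the points. The labels overlap in every panel. The high Sox4 point under the TAAR5-KO label is NK3 at 8.28 CPM, and the low Sox11 point is NK6 at 4.78 CPM.

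The 4 Dlx genes encode homeobox factors of the GABAergic lineage and lie in 2 pairs that face each other. Dlx1 and Dlx2 lie 9426 bases apart on chromosome 2, and Dlx6 and Dlx5 lie 9236 bases apart on chromosome 6. Mature GABAergic neurons, of which the striatum is mostly built, can also contain Dlx transcripts.

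Dlx1 (ENSMUSG00000041911.4, 71358457 to 71364325) had a mean of 1.83 ± 0.381 CPM under the TAAR5-KO label and 1.99 ± 0.414 CPM under the WT label (SD, n = 6). Values ran from 1.22 to 2.35 and from 1.33 to 2.63 CPM, with medians of 1.83 and 2.00. Dlx2 (ENSMUSG00000023391.9, 71373752 to 71377098) had 1.20 ± 0.342 and 1.22 ± 0.339 CPM, with ranges of 0.893 to 1.80 and 0.829 to 1.59 CPM and medians of 1.13 and 1.26. Either pair of ranges overlapped almost in full. The log2 fold changes were -0.12 for Dlx1 (standard error 0.17, adjusted p = 0.847) and -0.05 for Dlx2 (standard error 0.23, adjusted p = 0.963) in the likelihood ratio test of edgeR. Leaving out 1 library gave -0.20 (without NK5) to -0.02 (without NK8) for Dlx1. With the GC trend removed Dlx2 was at 0.10.

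Dlx5 (ENSMUSG00000029755.11, 6877805 to 6882085) ran from 0.893 over a median of 1.17 to 1.60 CPM under the TAAR5-KO label and from 1.02 over 1.20 to 1.62 CPM under the WT label. NK1 and NK3 lay below every WT library and NK7 lay above every TAAR5-KO library. In the fit the log2 fold change was 0.03 (standard error 0.21, adjusted p = 0.978 by the edgeR likelihood ratio test), whereas the mean CPM was lower under the TAAR5-KO label (1.22 against 1.28), so the fit and the means differed in sign.

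Dlx6 (ENSMUSG00000029754.14, 6863334 to 6868568) came nearest to the threshold. It ran from 2.09 over a median of 3.35 to 4.44 CPM in the libraries labelled TAAR5-KO and from 1.80 over 2.64 to 3.72 CPM in those labelled WT. The ranges overlapped, with NK1 and NK4 above every WT library and NK11 and NK12 below every TAAR5-KO library. Its log2 fold change was 0.38 with a standard error of 0.20 and an interval of -0.00037 to 0.77 (edgeR likelihood ratio test, unadjusted p = 0.052, adjusted p = 0.425), and 1698 features had a smaller p. Leaving out each library in turn gave 0.29 to 0.53, with an unadjusted p under 0.05 in 4 of 12 fits and a smallest adjusted p of 0.147, without NK6. NK11 and NK12, the libraries with the high growth hormone counts, held the lowest values of Dlx6, and without both the log2 fold change was 0.18 with an adjusted p of 0.894. With the ribosomal RNA share as a covariate it was 0.21, with an adjusted p of 0.796. It was 0.44 with the GC trend removed, 0.41 with the length trend removed and 0.36 with no filter. Each of these 3 fits had an unadjusted p under 0.05 in the edgeR likelihood ratio test. Of all 23 alternative fits 7 had such a p, and adjusted p ran from 0.147 to 0.894.

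The antisense transcripts of the Dlx loci were read beside these genes because the strand setting of the counting is not stated. Dlx6 lies inside the span of Dlx6os1 on the other strand without sharing exon bases with it, and 104 of its 2375 exon bases (4.38%) overlap Dlx6os2. Dlx6os1 was counted at 6.99 ± 0.94 CPM under the TAAR5-KO label and 5.71 ± 0.917 CPM under the WT label (SD, n = 6), a log2 fold change of 0.29 with an unadjusted p of 0.0262 and an adjusted p of 0.331 in the edgeR likelihood ratio test. The ratio of Dlx6 to Dlx6os1 counts stayed between 0.379 and 0.586 in the 12 libraries, with medians of 0.455 and 0.424 under the 2 labels. The ratio of Dlx6 to its neighbour Dlx5 ran from 1.38 to 4.46. Dlx6 also holds a short stretch found in other transcripts, with 47 of them matching at 95% or more over 100 to 151 bases, so its counts are uncertain.

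Of the 5396 exon bases of Dlx1, 2339 (43.3%) are shared with Dlx1as on the other strand. Dlx1as had 4 to 34 counts per library and a log2 fold change of 0.60 (edgeR likelihood ratio test, unadjusted p = 0.0303, adjusted p = 0.349), while that of Dlx1 was -0.12. The ratio of Dlx1 to Dlx1as counts ran from 2.14 to 9. The paper names a directional library kit, so the reads carried their strand, but whether the counting used it is not stated. Which gene a read in the shared part belonged to cannot be told from the counts, so Dlx1 is uncertain as well.

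**Figure D3:**
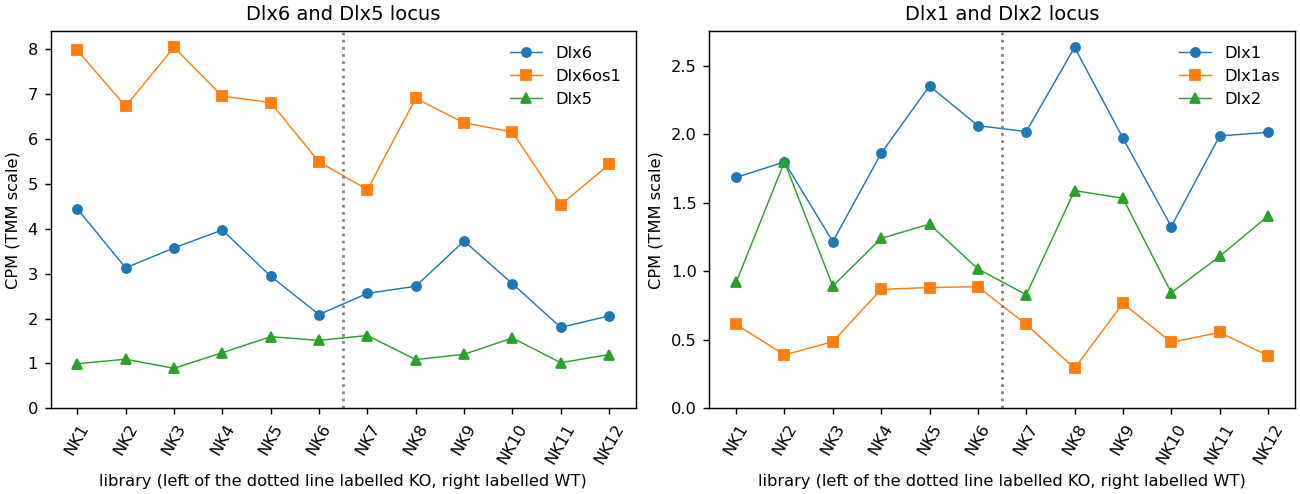
Levels in CPM on the TMM scale are plotted for each of the 12 libraries (TAAR5-KO labels left of the dotted line, WT labels right), with Dlx6, Dlx6os1 and Dlx5 in the left panel and Dlx1, Dlx1as and Dlx2 in the right panel. Dlx6 is at its lowest in NK11, at 1.80 CPM, where Dlx6os1 is also at its lowest. The lines only join the points of 1 gene, since the libraries have no order.

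Mki67 and Top2a had few counts in these libraries. Mki67 (ENSMUSG00000031004.9, chromosome 7, 135291513 to 135318090) had 6 to 37 counts per library and ran from 0.469 over a median of 0.88 to 1.22 CPM under the TAAR5-KO label and from 0.669 over 0.835 to 0.986 CPM under the WT label. NK3 and NK4 lay above every WT library and NK2 below every one. Its log2 fold change was 0.09 with a standard error of 0.22 (edgeR likelihood ratio test, adjusted p = 0.927), and without NK4 it was -0.0032. A stretch of 216 bases matched the transcript Gm44521 at 98.6%.

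Top2a (ENSMUSG00000020914.18, chromosome 11, 98883769 to 98915015) had 2 to 27 counts per library and was at or under 3 counts in 1 of 12. It ran from 0.153 over a median of 0.492 to 1.02 CPM under the TAAR5-KO label and from 0.277 over 0.445 to 0.876 CPM under the WT label, so that the lowest library (NK1) and the highest (NK2) had the same label. Its log2 fold change was 0.22 with a standard error of 0.36 (edgeR likelihood ratio test, adjusted p = 0.875), and without NK11 and NK12 it was -0.01. Leaving out 1 library gave 0.02 (without NK2) to 0.38 (without NK1). Its exons share 122 bases with Gm23451 on the same strand.

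The promoters of Mki67 and Top2a are shown with that of Dcx because CCAAT boxes and the cell cycle genes homology region (CHR) are known from the promoters of genes used in mitosis. Of the 10 genes, 7 had a promoter entry from RefSeq on GRCm38.p6, and Igfbpl1, Dlx5 and Dlx6 had none. The 250 bases before the start of transcription are printed 5′ to 3′ on the gene's strand, with capitals marking CCAAT and its reverse ATTGG, and TTTGAA and its reverse TTCAAA for the CHR. The windows are chr7:135716380-135716629 for Mki67, chr11:99024190-99024439 for Top2a and chrX:143933220-143933469 for Dcx, all on the minus strand.
Mki67: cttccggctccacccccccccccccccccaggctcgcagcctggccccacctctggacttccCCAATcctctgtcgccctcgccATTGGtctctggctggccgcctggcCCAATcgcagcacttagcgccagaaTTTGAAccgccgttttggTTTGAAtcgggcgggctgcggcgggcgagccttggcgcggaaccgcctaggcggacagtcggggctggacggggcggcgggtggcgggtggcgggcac
Top2a: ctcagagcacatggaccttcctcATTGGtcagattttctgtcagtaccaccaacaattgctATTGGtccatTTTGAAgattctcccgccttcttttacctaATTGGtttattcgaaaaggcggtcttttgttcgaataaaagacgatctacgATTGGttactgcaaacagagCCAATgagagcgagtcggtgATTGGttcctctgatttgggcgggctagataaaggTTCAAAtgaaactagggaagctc
Dcx: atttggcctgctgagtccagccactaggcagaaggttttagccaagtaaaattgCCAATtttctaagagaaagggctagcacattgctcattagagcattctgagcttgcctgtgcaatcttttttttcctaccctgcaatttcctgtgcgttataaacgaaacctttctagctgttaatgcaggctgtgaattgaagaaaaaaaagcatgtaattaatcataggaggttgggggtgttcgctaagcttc

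The window of Top2a held 6 CCAAT boxes and 2 CHR matches, and that of Mki67 held 3 and 2. That of Dcx held 1 and 0, and a second Dcx entry held 0 of either. Of the windows not printed, Sox4 held 4 CCAAT and 0 CHR, Sox11 1 and 1, Dlx2 1 and 0, and Dlx1 0 of either, so CCAAT was not particular to Mki67 and Top2a. Of 32851 promoter windows of this length, 33.8% held at least 1 CCAAT and 16.0% at least 1 TTTGAA on either strand. A match is a description of the letters and was not tied to a level here.

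Compared per length of exons, the genes fell into 2 ranges. On the scale of CPM per kilobase, averaged over the 12 libraries, Sox4 stood at 1.28 ± 0.191 (SD), Dlx6 at 1.26 ± 0.344 and Sox11 at 0.992 ± 0.169. Dlx5 followed at 0.554 ± 0.114, Dcx at 0.529 ± 0.065, Dlx2 at 0.424 ± 0.114 and Dlx1 at 0.354 ± 0.072. The ranges of neighbours in this order overlapped, with 1 exception. Dlx1 was 4.16-fold above the next gene, Mki67, in mean level, and its lowest library lay above the highest library of Mki67. Mki67 at 0.0851 ± 0.0206, Igfbpl1 at 0.0823 ± 0.0341 and Top2a at 0.0564 ± 0.0282 made up the lower range. Of the related genes described further on, Gsx2, Hes5, Sox3, Draxin and Prok2 failed the filter as Igfbpl1 did, with mean levels of 0.0665 to 0.189 CPM.

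How far a gene varied between libraries can be set against counting alone. The coefficient of variation of Dlx5 was 20.6%, where counting error gives 22.8%, and those of Mki67 (24.3% against 27.7%) and Igfbpl1 (41.4% against 50.5%) were also at or under it. Dlx6 varied by 27.4% against 14.3% and Sox11 by 17% against 8.69%, the largest 2 ratios to counting error among the 10. Top2a varied most, by 49.9% against 39%. Dcx, at 12.3% against 9.7%, varied least of all 10.

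**Figure D4:**
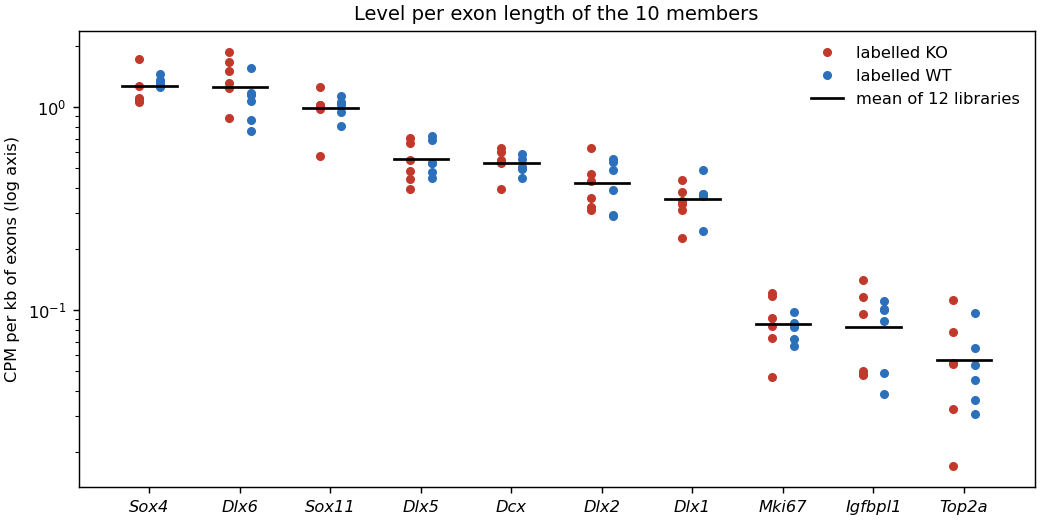
The level of each gene is plotted in CPM per kilobase of exons on a log axis, with 1 point per library (red labelled TAAR5-KO, blue labelled WT) and a bar at the mean of 12 libraries. Mki67, Igfbpl1 and Top2a lie below the 7 other genes, with a gap of 4.16-fold between the means of Dlx1 and Mki67.

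How far the genes moved together from library to library was read for 7 of the 10. Over the 21 pairs of the 7 genes with at least 20 counts on average, Pearson's r of the level across the 12 libraries ran from -0.39 (Sox4 and Dlx1) to 0.56 (Dlx1 and Dlx2), and none passed an adjusted p of 0.1 (permutation test, smallest adjusted p = 0.668). For Dlx1 and Dlx2, Spearman's rho was 0.34 with a permutation p of 0.287, the p of r was 0.0571, and r without the 2 libraries farthest from the median was 0.28. Within the labels it was 0.47 and 0.67.

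Tissue of other kinds moved between the libraries and was read beside these genes. The choroid plexus marker Ttr ran from 0.469 to 428 CPM under the TAAR5-KO label and from 1.38 to 259 CPM under the WT label. Slc17a7 of cortical pyramidal neurons ran from 10.9 to 44.2 and from 16.2 to 52.3 CPM. Foxj1, which drives the motile cilia of ependyma, ran from 0.766 to 4.90 and from 1.66 to 2.59 CPM. The summed level of 10 choroid plexus genes ran from 4.87 to 514 CPM under the TAAR5-KO label and from 5.25 to 312 CPM under the WT label. That of the ependyma list, with 13 of its 17 genes tested, ran from 6.13 to 27.2 and from 9.75 to 19.8 CPM.

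Neither list was called by label in any gene, and 9 of 10 choroid plexus genes were lower under the TAAR5-KO label and 9 of 13 ependyma genes higher. Of all 13902 features tested, 6792 were higher. The striatal spiny neuron list summed to 439 to 566 CPM under the TAAR5-KO label and 265 to 480 CPM under the WT label, with 13 of 14 genes higher and 0 called. Drd1 ran from 12.4 to 19.4 and from 6.93 to 15.1 CPM, and Drd2 from 11.9 to 16.2 and from 8.41 to 14.2 CPM. Pdgfra of oligodendrocyte precursors ran from 5.63 to 7.66 and from 6.87 to 8.83 CPM, and 7 of the 8 genes of its list were lower, with 0 called. Of the other lists, 3 of 11 astrocyte genes and 2 of 10 microglia genes were called lower, while 0 of 11 cortical pyramidal neuron, 0 of 11 interneuron and 0 of 10 endothelium genes were called. Of all features 1.65% were called. An unadjusted p under 0.05 (edgeR likelihood ratio test) was found for 11.9% of all features. It was found for 9 of 11 astrocyte, 6 of 10 microglia, 3 of 8 precursor and 1 of 11 interneuron genes, all lower, and for 5 of 14 spiny neuron genes, all higher. The choroid plexus, ependyma, cortical pyramidal neuron and endothelium lists had 0. The part of these markers in the values of the 10 genes was not tested beyond the relations that follow.

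Dcx, Sox11, Dlx2 and Mki67 were set against the mean log2 level of 5 such lists and the ribosomal RNA share, 24 relations in all, of which 0 passed an adjusted p of 0.1 (permutation test, smallest adjusted p = 0.577). The choroid plexus level fell into separate clusters of 5 and 7 libraries, parted by a gap of 47.7% of its range, so no value over all 12 is given for it. Within the 7 libraries with the higher level (NK4, NK5 and NK7 to NK11, of both labels), Dcx was lower where choroid plexus genes were higher, with Pearson's r of -0.88 (exact permutation p = 0.00972, adjusted p = 0.0389 over 4 relations) and Spearman's rho of -0.89 (exact permutation p = 0.0123). Without NK4 and NK7, the libraries farthest from the median, r was -0.74 over 5 libraries. For Sox11, Dlx2 and Mki67 r in the 7 libraries was 0.53, 0.29 and 0.28, with exact permutation p of 0.207, 0.543 and 0.561. This comparison within 7 libraries was chosen after the values were seen, and its adjusted p over 4 relations does not cover that choice. Dcx with the choroid plexus list was also 1 of the 24 relations over 12 libraries, of which 0 passed. No conclusion is drawn from it.

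Genes that act around the same cells were read from 4 lists, 142 genes in all, of which 110 were tested and 0 were called by the likelihood ratio test, the quasi-likelihood test or DESeq2. At an unadjusted p under 0.05 the likelihood ratio test had 16 of 110, which is 14.5% beside 11.9% of all features. Of these, 7 were higher and 9 lower under the TAAR5-KO label. The median log2 fold change of the 110 was -0.0073.

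Of 24 genes of stem and transit-amplifying cells, 21 were tested, 7 higher and 14 lower, with a median of -0.08. The 4 with an unadjusted p under 0.05 (19.0%, beside 11.9% of all features) were all lower. Among them were Fabp7, a fatty acid binding protein of radial glia (log2 fold change -0.61, adjusted p = 0.130 by the edgeR likelihood ratio test), the receptor Notch1 (-0.27, adjusted p = 0.378) and Lfng, which modifies Notch receptors (-0.34, adjusted p = 0.413). The 2 genes of highest level were Sox9 (-0.20, adjusted p = 0.467) and Sox1 (0.01, adjusted p = 0.987). Astrocytes also make Fabp7, Notch1 and Sox9, and the 11 genes of the astrocyte list summed to 1118 to 1301 CPM under the TAAR5-KO label and to 1234 to 1448 CPM under the WT label, with 11 of 11 lower and 3 called. Their part in these values was not tested.

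Fabp7 ran from 1.12 to 2.14 CPM in the libraries labelled TAAR5-KO and from 1.75 to 3.05 CPM in those labelled WT, with means of 1.53 ± 0.41 and 2.31 ± 0.489 CPM (SD, n = 6), and the ranges overlapped. It passed the threshold with the GC trend removed (-0.73, adjusted p = 0.0746), without NK5 (-0.76, adjusted p = 0.031) and without NK9 (-0.64, adjusted p = 0.0933). Fabp7 and the other genes with an unadjusted p under 0.05 are named after their values were seen.

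Of 34 other neuroblast genes, 33 were tested, 14 higher and 19 lower, with a median of -0.02. Those with an unadjusted p under 0.05, 8 of 33 (24.2%, beside 11.9% of all features), pointed both ways. Dlx1as, Dlx6os1 and the homeobox gene Meis2 were higher, by 0.60, 0.29 and 0.27 on the log2 scale. The beta tubulin Tubb2b was at -0.26, the growth-associated gene Stmn2 at -0.22, the prokineticin receptor Prokr2 at -0.48, Marcksl1 at -0.48 and the zinc finger gene Tshz1 at -0.22. Marcksl1 passed the threshold without NK5 (-0.64, adjusted p = 0.0594). The genes of highest level were Gad2, an enzyme of GABA synthesis (-0.02, adjusted p = 0.969 by the edgeR likelihood ratio test), and the adhesion molecule Ncam1 (0.01, adjusted p = 0.976). Gad2 (66.0 CPM on average), Ncam1 (63.7) and Meis2 (60.1) lay within the wide range of the 14 spiny neuron markers. Mean levels of those markers ran from 1.97 to 103 CPM, with Drd1 at 14.1 and Drd2 at 12.8. The part of mature neurons in the values of this list was not tested.

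Of 30 migration genes, 29 were tested, 18 higher and 11 lower, with a median of 0.07. The ephrin receptors Epha7 (0.30, adjusted p = 0.189 by the edgeR likelihood ratio test) and Epha4 (0.29, adjusted p = 0.263) and the netrin receptor Dcc (0.28, adjusted p = 0.325) had an unadjusted p under 0.05. These were 3 of 29 genes, a share of 10.3% beside 11.9% of all features. Epha7 passed the threshold without NK4 (0.34, adjusted p = 0.0974) and without NK5 (0.36, adjusted p = 0.073). Pafah1b1, the lissencephaly gene, was at 0.07 (adjusted p = 0.833) and Cdk5r1, the activator of Cdk5, at 0.13 (adjusted p = 0.703).

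Of 54 other cell cycle genes, 27 were tested, 14 higher and 13 lower, with a median of 0.0013. The 27 others failed the filter, among them Cdk1, Ccnb1, Aurkb and Plk1, and had mean levels of 0.0349 to 0.272 CPM. An unadjusted p under 0.05 was found for 1 of the 27, a share of 3.70% beside 11.9% of all features. This was Prc1, which bundles microtubules in late mitosis, with an unadjusted p of 0.0071 and an adjusted p of 0.190 in the edgeR likelihood ratio test. It had 0.602 ± 0.158 CPM under the TAAR5-KO label and 0.281 ± 0.173 CPM under the WT label (SD, n = 6), with ranges of 0.406 to 0.766 and 0 to 0.502. Ccnd2 was at 0.0013 (adjusted p = 0.995), Cdkn1b at 0.02 (adjusted p = 0.973) and Pcna, the sliding clamp of DNA replication, at 0.13 (adjusted p = 0.865). The mean CPM of Cdkn1b (9.68 against 9.71) and of Pcna (1.47 against 1.48) was lower under the TAAR5-KO label, so for both the fit and the means differed in sign.

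**Figure D5:**
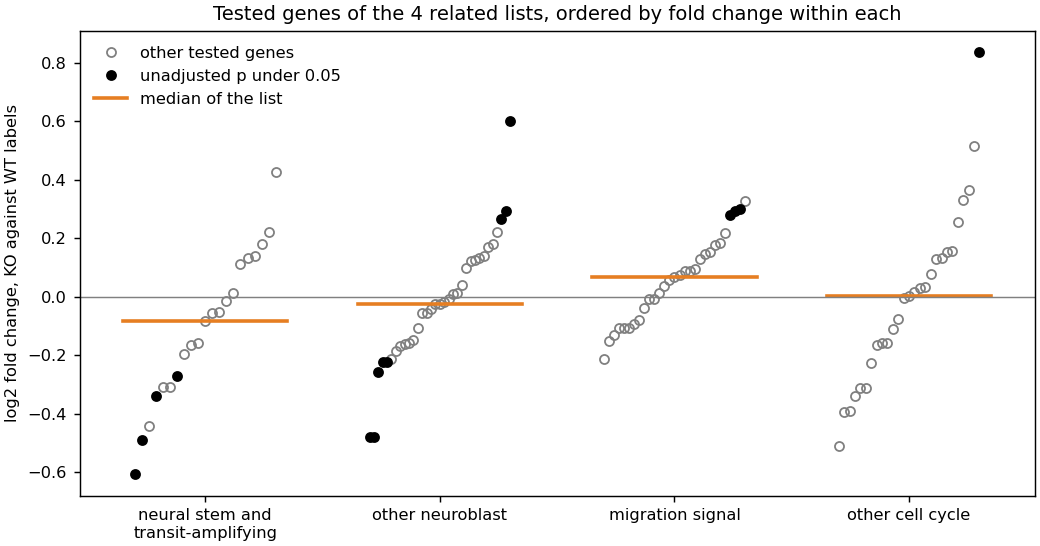
The log2 fold change (labelled TAAR5-KO against labelled WT) of the tested genes of the 4 lists is plotted in order within each list, with filled points for an unadjusted p under 0.05 and a bar at the median. The medians lie between -0.08 and 0.07, and all 4 filled points of the stem and transit-amplifying list lie below 0.

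The features whose level was most like that of Dcx across the 12 libraries, of 10150 compared, were Recql, Eif4e and Zfp248, with Pearson's r of 0.93, 0.91 and 0.89. For Sox11 they were Dok5 (0.84), Fam219b (0.81) and Nup98 (0.78), for Dlx2 Slc30a10 (0.83), Rabgef1 (0.82) and Nom1 (0.80), and for Mki67 Zfp930 (0.87), Commd1 (0.87) and Dph3 (0.86). These values are the highest of 10150 and are given as a description.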

How the data were processed

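Striatal RNA of 6 TAAR5-KO and 6 WT mice was sequenced, with 1 library per mouse. The authors trimmed the reads with Cutadapt 4.1, used STAR 2.7.11b for alignment to GRCm39, and obtained gene counts from featureCounts 2.0.6. They deposited whole-number counts per gene, neither normalized nor pooled. How strand and reads with several positions were handled is not given in the sources used here. Libraries were grouped by the genotype in the column name, and their numbers are tied to no animal. The table's 12 other count columns belong to none of these samples and were left aside.

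The rows of the 10 genes were taken by symbol. The genes, lists and tests were chosen with earlier results of these data known. Features with a CPM of at least 0.5 on total counts in at least 3 libraries were kept, scaled by TMM and fitted without covariates with glmFit and glmLRT in edgeR 4.0.16 (R 4.3.3), the test and the threshold (adjusted p under 0.1) of the study's methods. Adjusted p-values of this fit cover the 13902 features, those of the alternatives the features each kept, and those of correlations the relations of their family. The paper reports fewer tested features and fewer called genes than this fit gave. Most of its called genes were lower in TAAR5-KO mice, whereas most calls here were higher under that label. The cause of this difference was not tested. CPM of single genes were computed on TMM library sizes, and log2 CPM used a prior count of 2. Correlations used 100000 permutations, or all orders within 7 libraries, and the filtered-out Igfbpl1 an exact permutation test over libraries. DESeq2 1.42.0 and the quasi-likelihood test were alternatives. The GC and length trends of each library were fitted by loess with a span of 0.5. Exon overlaps came from the exon positions that the authors deposited with the counts. Matching stretches of 100 bases or more at 95% or more came from blastn 2.17.0 against GENCODE transcripts of a later release than the authors used. The test was tried on simulated counts with known changes.

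The named genes were the 10 genes, in each related list the called genes and the 2 of highest mean CPM, Pcna, 6 defining markers, and the 3 features most like Dcx, Sox11, Dlx2 and Mki67 with a mean of at least 20 counts. Others are said to be named after their values were seen. The values of 1 gene of the related lists are not reported here. The labels number 6 animals per genotype, and the 30 pairs of libraries within a label differed by more than counting error (chi-square per degree of freedom of 6.74 to 319). Limits of 3 counts cover counting error only.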

Additional observations from a re-analysis of the deposited data

Results flagged for a closer look

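Sox4 in library NK3, labelled TAAR5-KO, stood apart from the 5 other libraries of its label, at 8.28 CPM on the TMM scale against 5.07 to 6.08 CPM. It was the 1 flag among 20 groups of 6 libraries checked (10 genes under 2 labels) by Dixon's test at the 95% level, and chance alone flags about 1 in 20 groups. NK3 also had the highest Mki67 level of the 12 libraries (1.22 CPM) and the lowest Dlx1 level (1.22 CPM). Without NK3 the log2 fold change of Sox4 was -0.25 with an adjusted p of 0.333 in the edgeR likelihood ratio test, beside -0.15 and 0.683 with it.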

How the results depend on the processing

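The count of called genes among the 10 was 0 in each of the 24 alternatives, and of the recomputed fold changes 183 kept their sign and 23 did not. The 4 related lists had 1 call with the GC trend removed and 0 to 3 when 1 library was left out. Over all features, 229 calls became 108 at an adjusted p under 0.05, 63 with the quasi-likelihood test, 7 with library size as the only scaling, 93 with no filter, 82 with the GC trend removed, 98 with ribosomal RNA as a covariate and 52 without NK11 and NK12. Leaving out 1 library gave 85 (without NK11) to 415 (without NK4). Of the calls 58.1% were higher under the TAAR5-KO label, 0% with library size as the only scaling, 46.2% without NK11 and NK12, 68.3% with the quasi-likelihood test and 68.5% with the length trend removed. The cause was not tested.

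Library size as the only scaling moved the median of all features to -0.49, and with it Dcx to -0.46, Dlx5 to -0.42, Mki67 to -0.40, Top2a to -0.19 and Dlx6 to -0.14, so relative to that median Dlx6 stayed 0.35 higher. With the GC trend removed Dcx was at -0.086 and Dlx2 at 0.10. Dlx5 was at -0.0086 with no filter and -0.093 without NK11 and NK12, where Top2a was at -0.013. Leaving out 1 library gave -0.15 to 0.076 for Sox11, -0.16 to 0.049 for Dlx2, -0.062 to 0.15 for Dlx5 and -0.0032 to 0.18 for Mki67. Of 10 levels, 5 moved by more than their SD on CPM of total counts. Depth limits Igfbpl1, Top2a and Mki67 most, with 2 to 37 counts per library. The CPM filter on TMM library sizes, with 234 calls, and the relations between 7 of the 10 genes were added after the data were seen. No paired analysis was possible because the columns carry numbers from NK1 to NK12 that are not shared between genotypes and are not tied to the numbered animals of the labels.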
